A study of Equus caballus with 8 samples.

Results

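Chemokines are small secreted or membrane-bound proteins that guide leukocytes by binding receptors on their surface. They are named CXC, CC or CX3C for the spacing of the first cysteines. In the endometrium, the lining of the uterus, they come from epithelium, stroma, vessels and resident leukocytes, and they are known for placing natural killer cells, T cells, macrophages and plasma cells in the tissue around implantation. The members described here are 10 listed chemokine genes, CXCL12, CXCL14, CXCL16, CX3CL1, CXCL9, CXCL10, CCL28, CXCL17, CXCL8 and CCL2. They were picked by name, with earlier results of these data known. All 10 matched one of the 24942 NCBI Gene IDs in the deposited table of read counts.

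The RNA came from endometrial biopsies of 4 Bavarian Warmblood mares. From every mare there was 1 biopsy of Day 12 of pregnancy and 1 of Day 12 of the oestrous cycle, taken in random order, so 4 pregnant and 4 cyclic libraries formed 4 pairs. The protocol, worded the same for both groups, states that mares received 1500 IU of human chorionic gonadotropin to bring on ovulation, that they were inseminated with semen of a single stallion, and that the uterus was flushed before the biopsy. It also states that pregnancy was established by ultrasound of the embryonic vesicle, so the embryo had been in the uterus until the flushing. The labels state neither the ages of the mares nor the interval between their biopsies. It is not clear from this wording whether semen was given in the control cycles, so exposure to semen and the presence of the conceptus cannot be told apart. The comparison asked which chemokine transcripts differ between pregnant and cyclic biopsies of that day.

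Total counts ran from 9.81 to 16.7 M per library, and the pregnant library of mare 1 was the shallowest. Levels are counts scaled to library size (counts per M reads, CPM) with trimmed-mean (TMM) factors. A gene with 0 counts may lie anywhere up to 3 counts from counting error alone. Over the raw library totals, before the TMM factors, this is 0.306 CPM for mare 1 in pregnancy and 0.18 to 0.194 CPM for the 7 deeper libraries. CPM is not scaled to transcript length, so levels are compared between libraries and never between genes. A gene is said to have risen or fallen when its Benjamini-Hochberg adjusted p in edgeR's quasi-likelihood test, paired by mare, was below 0.05. Stromal, epithelial and endothelial marker transcripts were present in every library, and none of these markers was at 3 counts or fewer throughout.

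Of the 10 chemokines, 8 passed the low-count filter, and CXCL9 and CXCL8 did not. CXCL12 and CXCL16 rose in pregnancy, and 0 of the 8 tested members fell. CXCL14, CX3CL1, CXCL10, CCL28, CXCL17 and CCL2 missed the threshold. Beside these 2 calls among 8, 16.7% of all 15342 genes tested were called, with 8.53% called higher and 8.19% called lower, so 8 genes are too few to set the members apart from the rest. The members' median log2 fold change was 0.15, and that of all genes tested was 0.0042. In all 4 mares the same direction was seen for 3 tested members (CXCL12, CXCL16 and CXCL17), beside 38.8% of all genes. At an unadjusted p under 0.05 there were 3 members, the third being CXCL10.

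**Figure D1:**
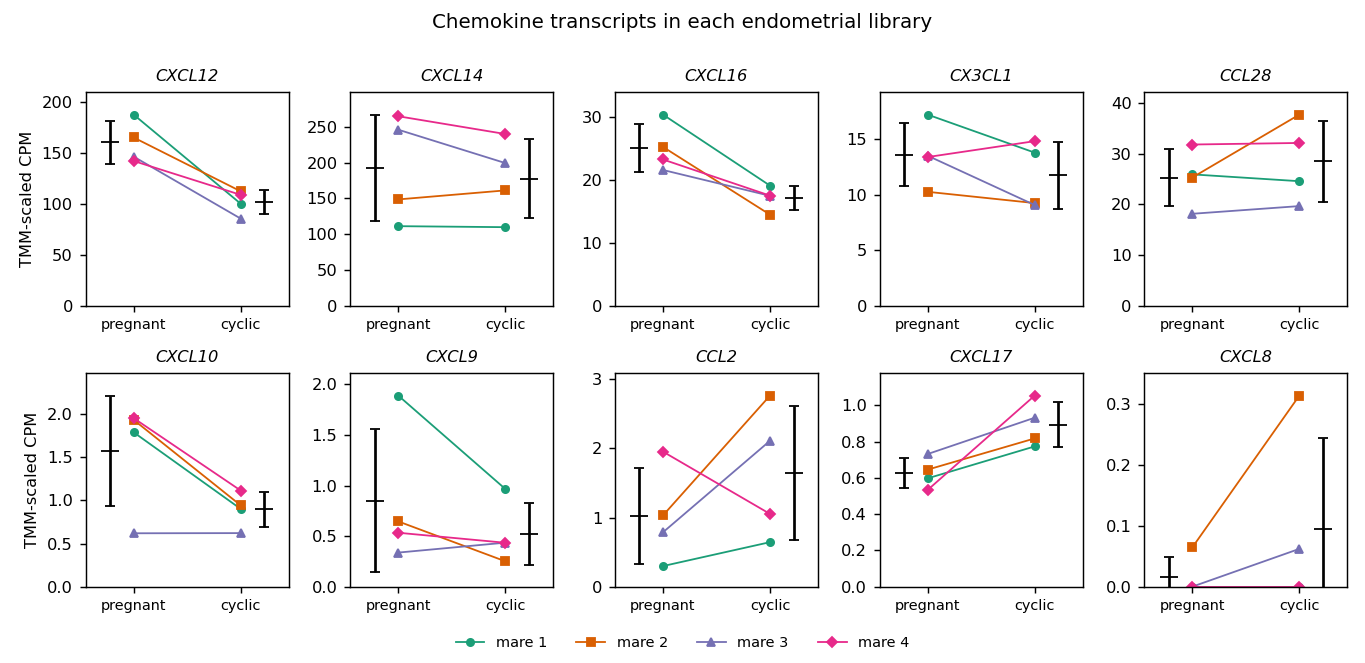
TMM-scaled CPM of the 10 chemokines in each library, with pregnant biopsies on the left and cyclic ones on the right of each panel. Lines join the biopsies of a mare, and black bars give the mean and SD of 4 libraries. CXCL12 and CXCL16 were higher in pregnancy in all 4 mares with no overlap between the groups, CXCL14 kept the order of the mares in both states, and CXCL10 was higher in every mare but mare 3.

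CXCL12, also called SDF1, is a constitutive chemokine of stromal and endothelial cells that acts through the receptor CXCR4 and is also bound by the scavenging receptor ACKR3. It had 188, 165, 147 and 142 CPM in the pregnant libraries of mares 1 to 4, against 100.3, 112.5, 85.7 and 109 CPM in their cyclic libraries. The groups did not overlap, and the highest pregnant value was that of mare 1. The means were 160.5 ± 20.8 CPM in pregnancy and 102 ± 12.0 CPM in the cycle (SD, n = 4 each), and the log2 fold change was 0.65 ± 0.09 (SE; edgeR adjusted p = 0.0019). The ratio within a mare was 1.87 in mare 1, 1.47 in mare 2, 1.71 in mare 3 and 1.30 in mare 4. This call held in all 12 alternative analyses, with an adjusted p of up to 0.0269, reached without the pairing by mare.

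CXCL14, a constitutive chemokine of epithelium and stroma for which no receptor is generally agreed, went with the mare and not with the state. It had 111, 148, 246 and 265 CPM in the pregnant libraries of mares 1 to 4, against 109.7, 161, 199 and 239.9 CPM in the cyclic libraries. Mares stood in the same order in both states, mare 1 lowest and mare 4 highest, and the groups overlapped almost entirely. The means were 192.5 ± 74.5 CPM in pregnancy and 177.5 ± 55.5 CPM in the cycle, and the log2 fold change of 0.09 had a 95% interval from -0.10 to 0.27 (edgeR adjusted p = 0.524). Of the variation in its log2 CPM, measured as sums of squares, 96.5% lay between mares and 0.831% between states, where the medians over all genes tested were 54.8% and 16.0%.

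Together CXCL12 and CXCL14 took most of the reads assigned to the 10 chemokines, a share to which transcript length also contributes. Their joint share was 79.3% to 87.6% in the pregnant libraries and 77.6% to 85.0% in the cyclic ones. The summed CPM of the 10 chemokines was 377, 379, 448 and 480.4 in the pregnant libraries of mares 1 to 4, against 271, 340.2, 335 and 417 in the cyclic libraries. It was higher in pregnancy in each mare, although the groups overlapped. The share of CXCL12 in this sum was 49.8% in the pregnant and 37.1% in the cyclic library of mare 1, and 29.6% and 26.1% in those of mare 4.

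CXCL16 and CX3CL1 are made as transmembrane proteins with the chemokine domain on a mucin stalk, which lets them hold cells by adhesion until proteases release them. CXCL16 is the ligand of CXCR6 and also takes up oxidised lipids. It had 30.3, 25.2, 21.5 and 23.2 CPM in the pregnant libraries of mares 1 to 4, against 19.1, 14.4, 17.4 and 17.5 CPM in the cyclic libraries. Every pregnant library lay above every cyclic one, and mare 1 was highest in both states. The means were 25.1 ± 3.81 CPM in pregnancy and 17.1 ± 1.93 CPM in the cycle, a 1.46-fold rise with a log2 fold change of 0.54 ± 0.11 (SE; edgeR adjusted p = 0.00799). The call was lost without the pairing by mare (adjusted p = 0.0673) and without mare 1 (adjusted p = 0.0521), where the log2 fold change was 0.50, and it held in the other 10 alternatives. In the RefSeq gene order its span overlaps those of ZMYND15 and MED11, and the labels describe no strand marking. ZMYND15 had 1.04 ± 0.387 CPM in pregnancy and 0.926 ± 0.0861 CPM in the cycle, and MED11 had 4.21 ± 0.185 and 4.58 ± 0.695 CPM in the same order, and neither was called (edgeR adjusted p = 0.819 and adjusted p = 0.673). These overlapping genes were named after their values were seen.

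CX3CL1, or fractalkine, binds CX3CR1 on monocytes, natural killer cells and T cells. It had 17.2, 10.2, 13.5 and 13.4 CPM in the pregnant libraries of mares 1 to 4, against 13.8, 9.24, 9.06 and 14.8 CPM in the cyclic libraries. It was higher in pregnancy in 3 mares and lower in mare 4, and the groups overlapped. The log2 fold change was 0.22, with a 95% interval from -0.07 to 0.51 (edgeR adjusted p = 0.282), an interval that reaches neither a doubling nor a halving.

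**Figure D2:**
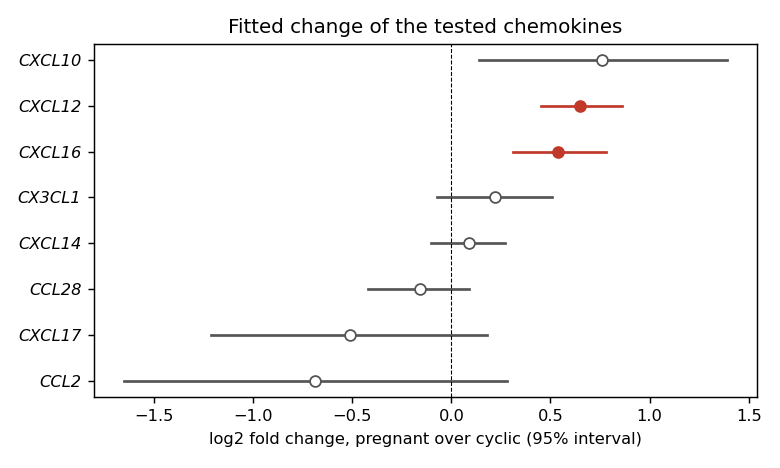
Log2 fold change of the 8 tested chemokines, pregnant over cyclic, with its 95% interval from the paired quasi-likelihood fit. Filled red points passed the threshold after adjustment over 15342 genes and open grey points did not. CXCL12 and CXCL16 lie clear of 0 with short intervals, CXCL14 sits at 0.09, and the intervals of CXCL10, CXCL17 and CCL2 are the widest.

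CXCL9 and CXCL10 are chemokines induced by interferons that attract activated T cells and natural killer cells through CXCR3, and their genes lie side by side in the RefSeq gene order together with CXCL11. All had few counts. CXCL10 had 1.79, 1.93, 0.619 and 1.95 CPM in the pregnant libraries of mares 1 to 4, from 11 to 33 counts, against 0.902, 0.943, 0.621 and 1.11 CPM in the cyclic libraries, from 10 to 18 counts. In mares 1, 2 and 4 the ratio within the mare was 1.99, 2.05 and 1.75, and in mare 3 it was 0.997. Its log2 fold change was 0.76 with a 95% interval from 0.14 to 1.39, which missed the threshold after adjustment over all genes (edgeR adjusted p = 0.0959) and in all 11 alternatives in which it was tested (adjusted p from 0.0698 to 0.428). Without mare 3 the value was 0.93 (adjusted p = 0.0698). ART3, whose span overlaps that of CXCL10, was at 0.103 ± 0.0967 CPM in pregnancy and 0.0942 ± 0.0629 CPM in the cycle.

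CXCL9 had 19, 10, 6 and 9 counts in the pregnant libraries of mares 1 to 4, against 15, 4, 7 and 7 counts in the cyclic libraries. In CPM this was 1.89, 0.645, 0.337 and 0.533 in pregnancy, against 0.966, 0.251, 0.435 and 0.434 in the cycle. Mare 1 was the highest in both states, and mare 3 was again the one in which the pregnant value was not the higher. CXCL9 was tested in the analysis without a low-count filter alone, where its log2 fold change was 0.60 with a 95% interval from -0.30 to 1.50 (edgeR adjusted p = 0.447). CXCL11, the remaining ligand of CXCR3, had 0.394 ± 0.138 CPM in pregnancy and 0.267 ± 0.107 CPM in the cycle and was likewise below the filter.

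CCL28 and CXCL17 are chemokines of mucosal epithelia. CCL28 draws IgA-producing plasma cells through CCR10. It had 25.95, 25.3, 18.2 and 31.85 CPM in the pregnant libraries of mares 1 to 4, against 24.6, 37.8, 19.7 and 32.2 CPM in the cyclic libraries. Mare 3 was lowest in both states, and the largest gap was in mare 2, where the pregnant value was 0.671 times the cyclic one. The log2 fold change was -0.16, with a 95% interval from -0.42 to 0.09 (edgeR adjusted p = 0.379). Between mares lay 80.6% of the variation of CCL28. In the RefSeq order a gene named only by a placeholder overlaps CCL28 and was not among the counted genes. Whether reads of that gene enter the counts of CCL28 was not tested.

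CXCL17 had 0.597, 0.645, 0.731 and 0.533 CPM in the pregnant libraries of mares 1 to 4, from 6 to 13 counts, against 0.773, 0.817, 0.931 and 1.05 CPM in the cyclic libraries, from 12 to 17 counts. It was lower in pregnancy in every mare with no overlap between groups. The log2 fold change was -0.51, with a 95% interval from -1.21 to 0.18, and missed the threshold (edgeR adjusted p = 0.298). Of the 8 tested members, 3 had groups that did not overlap, namely CXCL12, CXCL16 and CXCL17, beside 10.7% of all genes tested. A gene named only by a placeholder overlaps CXCL17 in the RefSeq order and had 74.3 ± 19.99 CPM in pregnancy and 81.4 ± 19.3 CPM in the cycle. Whether reads of that gene enter the few counts of CXCL17 was not tested.

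The inflammatory chemokines CXCL8, which recruits neutrophils through CXCR1 and CXCR2, and CCL2, which recruits monocytes through CCR2, were scarce. CXCL8 had 0, 1, 0 and 0 counts in the pregnant libraries of mares 1 to 4, against 0, 5, 1 and 0 counts in the cyclic libraries. All but the cyclic library of mare 2, at 0.314 CPM, were at or below the 3 counts that a count of 0 allows, and no fold is given. CCL2 had 0.298, 1.03, 0.787 and 1.95 CPM in the pregnant libraries, from 3 to 33 counts, against 0.644, 2.76, 2.11 and 1.05 CPM in the cyclic libraries, from 10 to 44 counts. It was lower in pregnancy in mares 1, 2 and 3 and 1.85-fold higher in mare 4. In mare 1 the pregnant library held only 3 counts, which a count of 0 also allows. Its log2 fold change of -0.69 had a 95% interval from -1.65 to 0.28 (edgeR adjusted p = 0.312). Without mare 4 the log2 fold change was -1.37 and passed (edgeR adjusted p = 0.0277), the single alternative of 12 in which CCL2 was called. After thinning to the smallest library it was -0.30 (edgeR adjusted p = 0.677).

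Variation between mares was tested for the same genes. The mares differed for CXCL14 (edgeR adjusted p = 0.00128) and CCL28 (edgeR adjusted p = 0.0316), 2 of the 8 tested members, beside 15.9% of all genes tested. The call of CCL28 was not kept when library totals replaced the TMM factors (adjusted p = 0.0874), with limma-voom (adjusted p = 0.0593), without mare 3 (adjusted p = 0.308) and without mare 4 (adjusted p = 0.0554), and without mare 4 CCL2 passed instead (adjusted p = 0.0463). CXCL14 was called in every alternative with mare terms, with an adjusted p of up to 0.0389. For CXCL12, 81.6% of the variation lay between states and 10.8% between mares, and for CXCL16 these shares were 73.0% and 17.3%. CX3CL1, CCL2 and CXCL10 had 70.2%, 58.7% and 57.8% between mares.

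**Figure D3:**
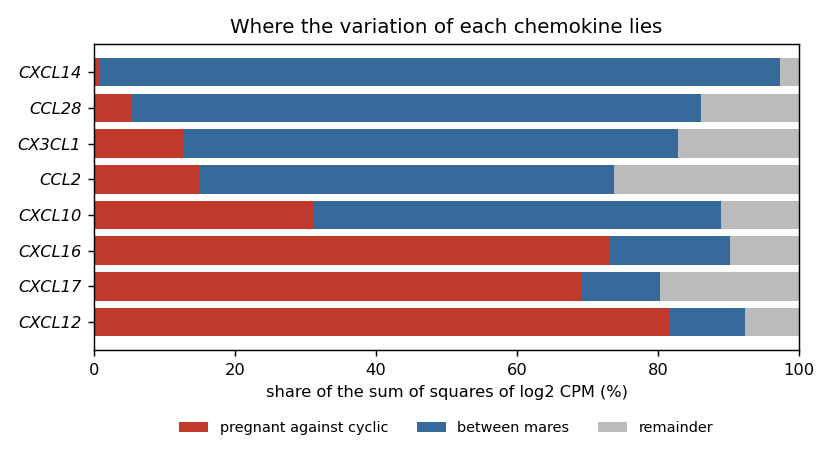
Share of the variation (sums of squares) in log2 CPM over 8 libraries that lay between pregnant and cyclic biopsies (red), between mares (blue) and in the remainder (grey), for the 8 tested chemokines. The state term has 1 degree of freedom and the mare term has 3. The bars run from CXCL14, with 96.5% between mares, to CXCL12, with 81.6% between the states.

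Among the receptors of the members, the receptors of CXCL12 rose. CXCR4, which signals in leukocytes and vessels, had 10.04, 9.99, 17.7 and 8.999 CPM in the pregnant libraries of mares 1 to 4, against 6.89, 5.91, 13.04 and 2.97 CPM in the cyclic libraries. Every mare was higher in pregnancy while the groups overlapped, mare 3 being the highest in both states. Its log2 fold change was 0.79 ± 0.18 (SE; edgeR adjusted p = 0.0185). The CXCR4 call was lost without the pairing by mare (adjusted p = 0.413), without mare 1 (adjusted p = 0.0536) and without mare 2 (adjusted p = 0.0725). ACKR3 had 30.9, 29.1, 28.1 and 33.5 CPM in pregnancy, against 20.9, 24.6, 24.3 and 18.2 CPM in the cycle, with no overlap. Its log2 fold change was 0.47 ± 0.12 (SE; edgeR adjusted p = 0.0257), and its call was lost without the pairing (adjusted p = 0.0754), without mare 1 (adjusted p = 0.115) and without mare 4 (adjusted p = 0.0781).

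The receptors of the other members missed the threshold. CXCR3 had 3.78, 4.12, 3.71 and 3.49 CPM in pregnancy, against 3.35, 1.51, 3.04 and 2.60 CPM in the cycle, higher in 4 of 4 mares and without overlap (log2 fold change 0.56; edgeR adjusted p = 0.141). CXCR6, the receptor of CXCL16, averaged 3.09 ± 1.08 CPM in pregnancy and 2.63 ± 1.53 CPM in the cycle (adjusted p = 0.414). CX3CR1 averaged 5.71 ± 1.59 and 6.90 ± 3.01 CPM in the same order (adjusted p = 0.352). For CCR2 the values were 2.29 ± 0.244 CPM in pregnancy and 2.35 ± 1.38 CPM in the cycle (adjusted p = 0.885), and for CXCR2 they were 2.67 ± 1.57 and 2.19 ± 1.21 CPM (adjusted p = 0.521). CCR10, at 0.534 ± 0.204 CPM in pregnancy and 0.393 ± 0.0803 CPM in the cycle, and CCR3, at 0.194 ± 0.131 and 0.157 ± 0.109 CPM, did not pass the low-count filter. CXCR1 was not analysed here. Of 21 chemokine receptor genes matched, 16 were tested, 2 rose and 0 fell, with a median log2 fold change of 0.31. Beside the 8.53% of all genes called higher, 2 of 16 does not set the receptors apart. The count of risers was 0 without mare 1 or without the pairing and 1 without mare 2 or mare 4.

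**Figure D4:**
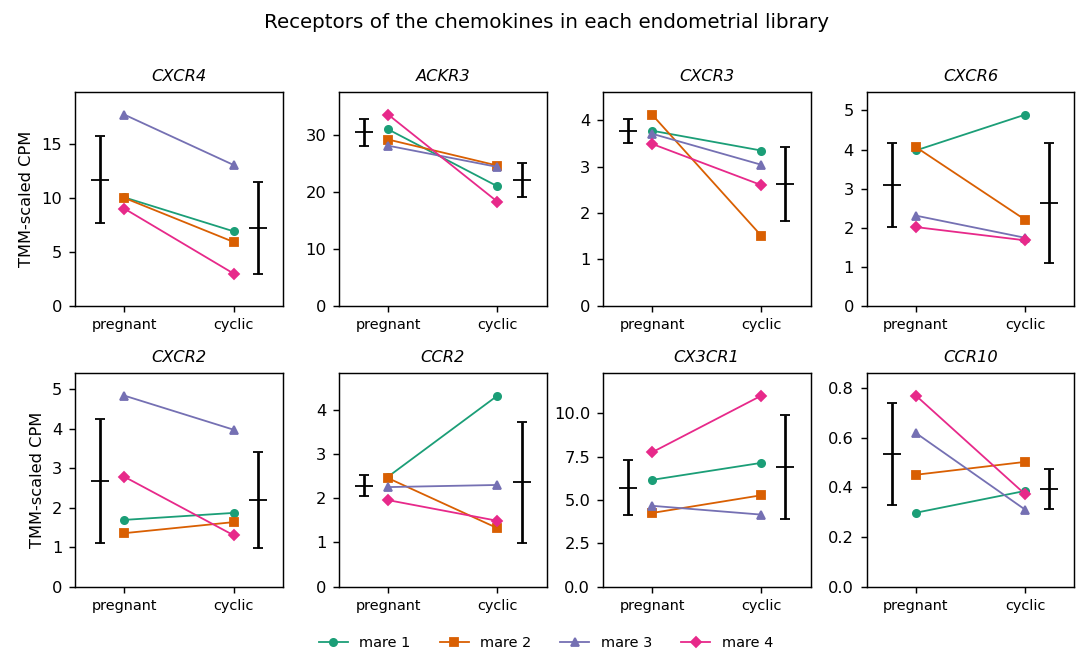
TMM-scaled CPM of 8 receptors that bind the chemokines described, with pregnant biopsies on the left and cyclic ones on the right of each panel. Lines join the biopsies of a mare, and black bars give the mean and SD of 4 libraries. CXCR4, ACKR3 and CXCR3 were higher in pregnancy in all 4 mares, of which CXCR4 and ACKR3 passed the threshold, and CX3CR1 was higher in pregnancy in mare 3 alone.

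The other chemokines that could be analysed were mostly scarce. Of 34 listed, 23 matched a counted Gene ID by symbol, and the rest, among them CXCL5, CCL4 and CCL21, were not analysed. Of the 23 matched, 8 were tested, 1 rose and 0 fell, with a median log2 fold change of 0.14. At most 3 counts in every library were seen for 7 of the 23. Beside the 8.53% of all genes called higher, 1 of 8 does not set this list apart. The riser was CCL5, a chemokine that T and natural killer cells release. It had 29.6, 35.2, 17.9 and 22.3 CPM in the pregnant libraries of mares 1 to 4, against 22.4, 18.6, 14.7 and 14.2 CPM in the cyclic libraries. Every mare was higher in pregnancy, mare 2 by the widest gap, and the groups overlapped. Its log2 fold change was 0.57 ± 0.11 (SE; edgeR adjusted p = 0.00967), lost without the pairing by mare (adjusted p = 0.205).

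Enzymes and matrix molecules that process or present chemokines moved both ways. Of 10 tested, 1 rose and 2 fell, with a median log2 fold change of 0.06. Beside the 8.53% of all genes called higher and the 8.19% called lower, these counts do not set the list apart. ADAM10, a membrane protease that releases CXCL16 and CX3CL1 from the cell surface, fell to 94.2, 121.7, 96.6 and 132 CPM in the pregnant libraries of mares 1 to 4, against 110.1, 194, 122.6 and 173 CPM in the cyclic libraries. It was lower in each mare (log2 fold change -0.41 ± 0.08 SE; edgeR adjusted p = 0.00936), and the call was lost without the pairing by mare (adjusted p = 0.282). FAP, a stromal protease related to the chemokine-trimming enzyme DPP4, fell as well (log2 fold change -0.44 ± 0.08 SE; edgeR adjusted p = 0.00458; without the pairing, adjusted p = 0.258). SDC4, a cell surface proteoglycan, rose with an adjusted p of 0.0496 that passed in 6 of 12 alternatives (adjusted p up to 0.288). ADAM17, the other protease that sheds these chemokines, averaged 32.04 ± 2.34 CPM in pregnancy and 32.5 ± 3.21 CPM in the cycle (adjusted p = 0.899), and DPP4 averaged 489 ± 32.3 and 555.5 ± 72.0 CPM (adjusted p = 0.281). These last 2 genes were named after their values were seen.

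Genes of 2 signals known to induce chemokines, interferon gamma and nuclear factor kappa B, were listed as well. Their shares of risers, 1 of 9 and 1 of 11 tested, are read beside the 8.53% of all genes called higher, and do not set these lists apart. IFNG, which codes for interferon gamma, had 0 counts in each of the 8 libraries. Of 9 genes tested on the interferon gamma list, 1 rose and 0 fell, with a median log2 fold change of 0.21. The riser was the receptor chain IFNGR1, at 66.4 ± 6.84 CPM in pregnancy and 53.7 ± 3.05 CPM in the cycle (log2 fold change 0.30 ± 0.07 SE; edgeR adjusted p = 0.0154), a call lost without the pairing (adjusted p = 0.117), without mare 1 (adjusted p = 0.094) and without mare 2 (adjusted p = 0.0606). Of 11 genes tested on the list for nuclear factor kappa B and its inducers, 1 rose and 0 fell, with a median of 0.20. This was the interleukin 1 receptor IL1R1, at 31.3 ± 3.30 CPM in pregnancy and 22.15 ± 3.40 CPM in the cycle (log2 fold change 0.51 ± 0.11 SE; edgeR adjusted p = 0.0124), lost without the pairing (adjusted p = 0.0767), without mare 2 (adjusted p = 0.0562) and without mare 3 (adjusted p = 0.0574).

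Marker transcripts of several cell types moved beside the chemokines. In bulk tissue, a change in the number of cells of a type and a change in RNA per cell cannot be told apart. Counts for all marker lists are read beside the 8.53% of all genes called higher and the 8.19% called lower. Of 12 endothelial markers, 10 rose and 0 fell, with a median log2 fold change of 0.88. Their summed CPM ran from 766.5 to 1276 in the pregnant libraries and from 435 to 599.9 in the cyclic ones. CLDN5, a tight junction protein of vessels, had a log2 fold change of 1.58 ± 0.11, CDH5, the endothelial cadherin, 0.87 ± 0.08, ECSCR 1.16 ± 0.12 and PECAM1 0.88 ± 0.10 (SE; edgeR adjusted p from 1.58e-04 to 8.83e-04). Of 11 stromal markers, 7 rose and 0 fell, led by DPT (2.09-fold), MFAP4 (2.40-fold), SCARA5 (1.59-fold) and VIM (1.47-fold), with edgeR adjusted p from 4.77e-04 to 0.00294, of which MFAP4 was lost without the pairing (adjusted p = 0.0506), where 3 stromal markers rose. The stromal sum overlapped between the groups, at 4611 to 5348 CPM in pregnancy and 3904 to 5328 CPM in the cycle. For CXCL12, known from both cell types, and for the other members, the part of these markers in the values was not tested.

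Epithelial markers, which concern CCL28, CXCL17 and, besides stroma, CXCL14, went mostly the other way. Which cells made CXCL16 and CX3CL1 was not resolved in these bulk libraries. Of 10 tested, 1 rose and 4 fell, with a median log2 fold change of -0.16. Their summed CPM was 1672 to 1861 in the pregnant libraries and 1796 to 2166 in the cyclic ones, lower in pregnancy in each mare. The keratins KRT7 (log2 fold change -0.59 ± 0.10; edgeR adjusted p = 0.00384) and KRT18 (-0.31 ± 0.08; adjusted p = 0.0244) and the apical protein PROM1 (-0.36 ± 0.08; adjusted p = 0.0132) fell, and the mucin MUC1 rose (0.66 ± 0.14; adjusted p = 0.0194). All 4 calls were lost without the pairing, with an adjusted p of 0.17 to 0.528, and MUC1 also without mare 4 (adjusted p = 0.0861). KRT18 was lost as well with library totals (adjusted p = 0.0723), without mare 1 (adjusted p = 0.129), without mare 2 (adjusted p = 0.0592) and without mare 4 (adjusted p = 0.0579). The count of epithelial falls was 2 when library totals replaced the TMM factors and without mare 1, mare 2 or mare 4.

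Leukocyte markers bear on CXCL9, CXCL10, CXCL16 and the receptors. Of 18 T and natural killer cell markers tested, 6 rose and 0 fell, with a median log2 fold change of 0.46, and the count of risers was 1 without mare 2, 2 without mare 1 or mare 4, 3 with DESeq2 and 0 without the pairing. The risers with the smallest p were SKAP1 (log2 fold change 0.58 ± 0.09), CD3D (0.61 ± 0.14), the granzyme GZMK (0.89 ± 0.21) and CD8B (0.78 ± 0.21), with edgeR adjusted p from 0.00302 to 0.0354. Of these, CD8B passed in 6 and CD3D in 8 of 12 alternatives. The summed CPM of all 19 matched T and natural killer cell genes was 258, 238, 201 and 175 in the pregnant libraries of mares 1 to 4. In the cyclic libraries this sum was 221, 133, 171 and 133, with the widest gap in mare 2. SKAP1 alone gave 110.1, 86.25, 100.6 and 56.8 CPM of the pregnant sums and 82.9, 51.4, 78.5 and 32.3 CPM of the cyclic ones. Of 12 B and plasma cell markers matched, 7 were tested, and CD79B and PAX5 had at most 3 counts in every library. Among the 7, 3 rose and 0 fell, beside 8.53% of all genes called higher, with a median log2 fold change of 0.68. The risers were PRDM1 (1.60-fold), CD79A (2.90-fold) and BLK (2.48-fold), with edgeR adjusted p from 0.00301 to 0.0245. Of these, PRDM1 alone passed without the pairing. CD79A had 13 to 35 counts in the pregnant and 4 to 13 counts in the cyclic libraries. BLK, with 8 to 24 counts in the pregnant and 2 to 12 counts in the cyclic libraries, passed in 4 of the 9 alternatives that tested it (adjusted p up to 0.249) and was lost with DESeq2 and without mare 2, mare 3 or mare 4. The count of risers was 1 with the filter of more than 2 CPM in at least 2 libraries and 1 after thinning. The summed CPM of the 12 matched genes on the B and plasma cell list was 191.5 to 252 in pregnancy and 80.4 to 181 in the cycle. This list also holds PIGR, an immunoglobulin transporter of epithelium, and its part in the sum was not tested. CCL28, known for attracting plasma cells, did not pass beside these markers. Among 10 myeloid markers tested 1 rose, the lipopolysaccharide co-receptor CD14 (log2 fold change 0.56 ± 0.10; edgeR adjusted p = 0.00469), and 0 fell. Beside the 8.53% of all genes called higher, 1 of 10 does not set the myeloid list apart. The part of leukocyte markers in the values of the chemokines and receptors was not tested.

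Of 7 neutrophil markers matched, 2 were tested and 0 changed, and S100A8, S100A9, MPO and ARG1 had at most 3 counts in every library. LTF, which is not particular to neutrophils, averaged 8.25 ± 2.39 CPM in pregnancy and 10.2 ± 7.56 CPM in the cycle (edgeR adjusted p = 0.945). CSF3R averaged 3.24 ± 3.77 and 3.13 ± 2.82 CPM in the same order (adjusted p = 0.748). Of the summed neutrophil markers, LTF was 8.75 of 9.645 CPM in the pregnant and 14.17 CPM held 13.07 of LTF in the cyclic library of mare 1. In the pregnant library of mare 3, LTF was 10.2 of 19.7 CPM.

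**Figure D5:**
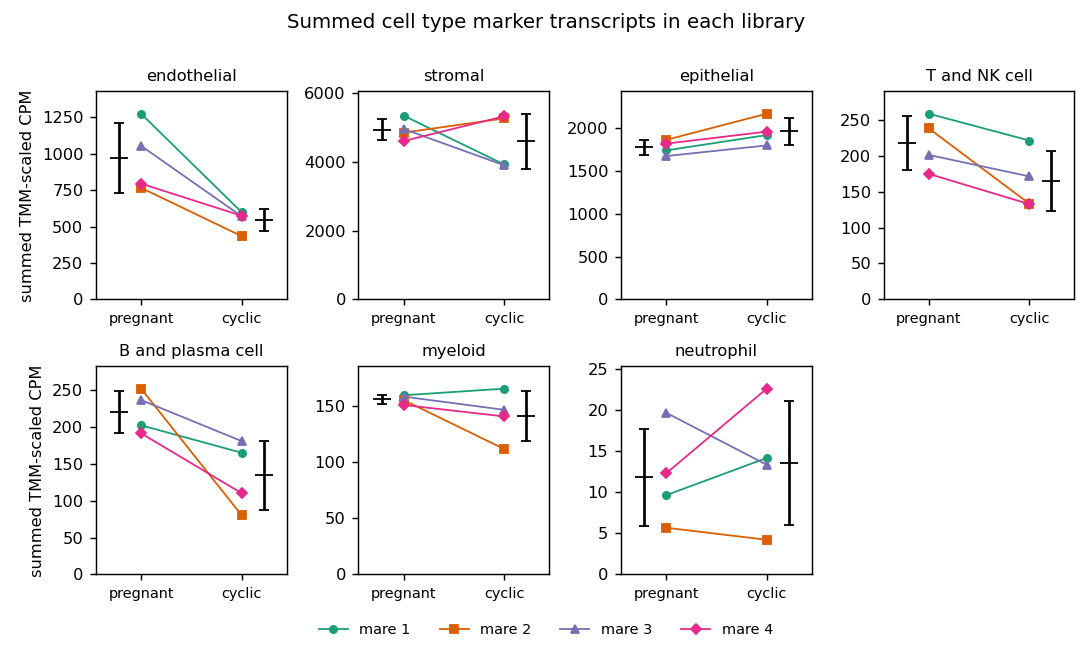
Summed TMM-scaled CPM of 7 lists of cell type markers in each library, with pregnant biopsies on the left and cyclic ones on the right. Lines join the biopsies of a mare, and black bars give the mean and SD of 4 libraries. Endothelial, T and natural killer, and B and plasma cell sums were higher in pregnancy in all 4 mares. The epithelial sum was lower in all 4, and the stromal, myeloid and neutrophil sums went both ways. SKAP1 alone gave 56.8 to 110.1 CPM of the T and natural killer cell sum in pregnancy and 32.3 to 82.9 CPM in the cycle. The B and plasma cell sum also holds the epithelial gene PIGR, and the neutrophil sum holds LTF, which is not particular to neutrophils.

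The transcripts whose pattern over the 8 libraries was nearest to each member were picked by the root-mean-square (RMS) difference of log2 CPM centred on the gene's own mean, among 12722 genes with a symbol and a mean of at least 1 CPM. For CXCL12 these were CLEC14A (RMS difference 0.0714), C1S (0.0775) and ARHGAP29 (0.0929), where the median over all genes was 0.422. For CXCL16 they were TOMM34 (0.0721), EXOC3L1 (0.0811) and F2R (0.0834), with a median of 0.384. CXCL14 was nearest to ALOX12 (0.123), GABBR1 (0.151) and TRIP10 (0.184), with a median of 0.523. CXCL10 was nearest to MX1 (0.235), ZNF683 (0.264) and DDX60 (0.281), with a median of 0.616.

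Among the remaining members, CX3CL1 was nearest to HSPG2 (0.0958), CDH1 (0.0972) and RCAN2 (0.111), and CCL28 to TM6SF1 (0.0996), FLRT2 (0.112) and ECT2 (0.112). CXCL17 was nearest to NF2 (0.101), IQCB1 (0.122) and CDK2 (0.123), with a profile that itself spread by 0.262. The best match of CCL2, ARHGEF4, still differed by 0.406, followed by SLC25A22 (0.429) and LGB1 (0.43). Among the members themselves, CXCL12 and CXCL16 were the closest pair, with an RMS difference of 0.194. The 8 libraries share 4 mares, so these values describe the libraries and carry no test.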

How the data were processed

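Poly(A) RNA was sequenced from 4 pregnant and 4 cyclic endometrial biopsies of 4 mares, in a preparation for which the labels' protocols describe no strand marking. The authors deposited raw read counts for 24942 NCBI Gene IDs. The submitters' processing notes name Trimmomatic (0.32.2) and HISAT2 (2.0.3). As for the genome build, the annotation and the counter, they were not given in the sources used here. A second table that the authors deposited, of signal values for 14037 genes, holds TMM-scaled CPM (100% of values within a relative tolerance of 1e-06) and served only for that check.

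Symbols were taken by Gene ID from the RefSeq gene table of the telomere-to-telomere Thoroughbred assembly (85.9% of IDs matched). Listed symbols that matched no counted Gene ID, among them IL1B, IDO1, KRT8 and KRT19, were not analysed. Genes passing filterByExpr (minimum count 10; 15342 genes) were scaled by TMM and tested with edgeR 4.0.16 under R 4.3.3, by the robust quasi-likelihood F-test with the mare as block, because the series' design text puts both biopsies in every mare. Deviations from the group means correlated across genes within a mare (0.54, 0.38, 0.48 and 0.47 for mares 1 to 4). Between different mares the correlations ran from -0.33 to -0.015. Taking deviations from a mean of few libraries by itself pushes these values down. P-values were adjusted by Benjamini-Hochberg over all genes tested. A standard error is the log2 fold change over the square root of F, and 95% intervals use the fit's degrees of freedom. Shares of variation were taken from log2 CPM with a prior count of 2. Every pair of libraries of a group differed by more than sampling noise (lowest chi-square per degree of freedom 24.6).

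The genes named are the members, their receptors, up to 4 called genes per list by smallest p or the 2 most abundant where none was called, and the 3 nearest patterns per member, with exceptions stated. Members and lists were chosen with earlier results of these data known. The 12 alternatives were DESeq2's size factors, library totals, no low-count filter, a filter of more than 2 CPM in at least 2 libraries, DESeq2 1.42.0, limma-voom (limma 3.58.1), thinning to the smallest library, no block, and leaving out each mare.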

Additional observations from a re-analysis of the deposited data

Results flagged for a closer look

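Within groups of 4 libraries, a library far from the other 3 was looked for by Dixon's criterion in 107 groups of values of named genes, of which chance alone marks about 5%, and 8 were marked. CXCL10 in the pregnant library of mare 3 was low, at 0.619 CPM, where the other pregnant libraries had 1.79 to 1.95 CPM. CXCR4 in the pregnant library of mare 3 was high, at 17.7 CPM, where the others had 8.999 to 10.04 CPM. CXCR6 in the cyclic library of mare 1 was high, at 4.89 CPM, where the other cyclic libraries had 1.67 to 2.199 CPM. CCR3 in the pregnant library of mare 1 was at 0 CPM, where the others had 0.237 to 0.281 CPM. A count of 0 there allows up to 0.306 CPM before the TMM factors. SDC4 was low in the pregnant library of mare 2, at 118.7 CPM where the others had 148 to 150.4 CPM, and high in the cyclic library of mare 3, at 148.5 CPM where the others had 100.2 to 105.7 CPM. MFAP4 was high in the cyclic library of mare 3, at 34.4 CPM where the others had 16.5 to 17.1 CPM. MMP2 was high in the cyclic library of mare 1, at 537.6 CPM where the others had 388.6 to 403 CPM.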

How the results depend on the processing

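Over the 8 tested chemokines, 93 log2 fold changes were recomputed under the 12 alternatives, of which 90 kept direction and side of the threshold, 2 lost the call (both CXCL16) and 1 gained it (CCL2 without mare 4). For the 42 other named genes, 426 of 498 were kept, 50 lost the call, 8 gained it and 14 changed sign. The sign changed for CCR2 (-0.05 without the replicate block; -0.18 to 0.40 leaving out a mare), LTF (0.00 with DESeq2; -0.39 to 0.35 leaving out a mare), CSF3R (0.00 with limma-voom, 0.08 without the block; -0.41 to 0.05 leaving out a mare), ADAM17 (0.02 with library totals, 0.01 after thinning; -0.05 to 0.02 leaving out a mare) and ZMYND15 (-0.07 after thinning; -0.06 to 0.30 leaving out a mare), none of them called in any analysis.

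Without the replicate block 389 genes changed in place of 2565, 1 chemokine changed in place of 2 (1 rose, CXCL12), and 20 of 30 calls among the named genes were lost. Leaving out a mare gave 1266 to 2057 changed genes, 1 to 3 changed chemokines, 1 to 2 risen, 0 to 1 fallen and 1 to 2 differing between mares. The chemokines differing between mares numbered 1 with library totals and 1 with limma-voom. Of 288 recomputed counts for the gene lists, 251 stayed within 1.5 times. The cause of these changes was not tested. Counts of CXCL9, CXCL10, CXCL17, CXCL8 and CCL2 were at most 44 in any library, so counting error is large for them, and how far depth limits their tests was not tested. Pattern likeness was computed under TMM only.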

Other observations

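Some further listed genes, named after their values were seen, lay near the threshold without passing it. They are a selection, and GBP5 of the interferon gamma list lay as near (edgeR adjusted p = 0.076). MMP2, a matrix protease that can inactivate CXCL12 by cleavage, had 789.7, 649.7, 1389 and 562 CPM in the pregnant libraries of mares 1 to 4, against 537.6, 388.6, 403 and 391 CPM in the cyclic libraries. The groups did not overlap, and the pregnant library of mare 3 stood highest. Its log2 fold change was 0.90 ± 0.24 (SE; edgeR adjusted p = 0.0629), and it passed in 4 of 12 alternatives, among them without mare 3, where the value was 0.60 (adjusted p = 0.00884; range over its alternatives 0.00884 to 0.244). ACKR1, a receptor that vessels use to carry chemokines, averaged 7.55 ± 1.15 CPM in pregnancy and 5.15 ± 2.12 CPM in the cycle and was higher in 4 of 4 mares (edgeR adjusted p = 0.0952). NFKBIA, the inhibitor of nuclear factor kappa B that is itself induced by it, averaged 99.9 ± 14.6 CPM in pregnancy and 76.6 ± 10.7 CPM in the cycle. It was higher in 3 of 4 mares and lower in mare 3, without which its log2 fold change of 0.38 (edgeR adjusted p = 0.0529) was 0.53 (adjusted p = 0.00566; range over its alternatives 0.00566 to 0.193). NFKBIA passed in 4 of 12 alternatives. Besides leaving out mare 3, these were DESeq2's size factors (adjusted p = 0.0485), library totals (adjusted p = 0.0452) and DESeq2 (adjusted p = 0.0252).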
